A study of Mus musculus with 9 samples.

Results

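Collagen chains are the gene products that wind around each other in threes to make the collagens of the extracellular matrix, and the array has 42 of them among 30142 named genes. They were chosen by name alone, as every gene whose row carried a single symbol of the form Col, number, a, number, with the row of the highest mean over the 9 arrays kept. By role the 42 divide into 11 fibrillar chains, 6 type IV chains, 2 chains of the basement membrane zone (types XV and XVIII), 5 type VI chains, 9 chains of fibril-associated collagens (FACITs), 3 short-chain network collagens, 4 transmembrane collagens and 2 others. Rows that named Col7a1 together with Mir711, and Col6a4 together with Dvwa, could not be given to 1 gene and were not counted as members.

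The fibrillar collagens I, III and V assemble into the banded fibres that give white fat its septa and tensile strength, and are made mainly by fibroblasts and adipocyte progenitors. Type IV collagen forms the sheet-like network of the basement membrane that wraps each adipocyte and each capillary, where types XV and XVIII link that sheet to the surrounding stroma. Type VI collagen builds beaded filaments beside the basement membrane and is abundant in adipose tissue.

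The tissue was inguinal white adipose tissue of mice that all carried Adiponectin-rtTA and a TRE-driven Cre (Tre-CRE for the knockouts in the labels) and that all ate doxycycline chow for 28 days from 8 weeks of age. In the knockout group (Zfp423loxP/loxP, 3 arrays) doxycycline induces Cre through a transactivator under the adiponectin promoter, so that deletion of Zfp423, a zinc-finger regulator of adipocyte fate, is directed to adipocytes and not to the stromal cells. The cold group (Zfp423+/+, 3 arrays) was housed at 6 °C for the final 14 days, while the knockouts and the control group (Zfp423+/+, 3 arrays) stayed at room temperature. The question posed was how far adipocytes without Zfp423 resemble the beige adipocytes that cold induces, and the collagen genes show the matrix side of that comparison. Nothing in the labels ties replicates to individual mice, and p-values therefore reflect only array-to-array spread, which may be technical. Cold was tested only in mice with intact Zfp423, and the knockout and cold groups share the same 3 controls.

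All values are the deposited log2 values, 1 array per sample, with array medians between 5.28 and 5.34 over the table. Zfp423 read 7.56, 8.15 and 8.04 in knockout fat, 8.83, 8.72 and 8.40 in cold fat and 8.74, 8.22 and 8.40 in control fat. Its knockout difference from control was -0.53 and did not pass (limma, adjusted p = 0.254). The tissue also holds stromal cells, to which the deletion is not directed, and their part in this difference was not tested. Ucp1, the uncoupling protein of thermogenic adipocytes, was higher in knockout than in control fat (limma, adjusted p = 0.00855) and in cold than in control fat (adjusted p = 0.00224). It reached 19.92 on knockout replicate 2, at the upper end of the scale (19.93), where differences are compressed, so that the fitted 6.90 and 6.61 log2 units are not exact sizes. Adipoq, the adiponectin gene that marks adipocytes, averaged 14.7 in knockout, 14.7 in cold and 15.2 in control fat. It is 1 of 10 adipocyte markers and does not stand for the list. The mean of the 10 shifted from the control average by -0.62, 0.13 and -0.15 on the knockout arrays. On the cold arrays it shifted by 0.28, 0.27 and 0.20, the other way from Adipoq. Most genes had their middle value of a group on the same array: knockout replicate 3 for 74.0% of genes, cold replicate 2 for 53.1% and control replicate 3 for 67.7%, against 12.1% to 23.8% for the remaining arrays. Calls without these 3 arrays are given beside the counts they touch.

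Of the 42 chains, 24 passed the filter on dim rows (a mean of at least 5.3146 over the 9 arrays) and entered the fit over 16639 genes: 8 fibrillar, 2 type IV, 2 of the basement membrane zone, 5 type VI, 4 FACIT, and 1 in each of the remaining classes. Just outside the filter lay Col4a4 at 5.3048, and just inside it Col20a1 at 5.3594. Of the 18 chains left out, 16 read exactly 1 value, to 4 decimals, on 5 or more of the 9 arrays. So did 4 of the 24 chains tested and 15.3% of all genes tested. No such share was taken over the genes below the filter, so the 16 of 18 have no background here. The chains left out include Col9a1, Col9a2, Col9a3, Col10a1, Col11a1 and Col11a2, which are known from cartilage, while the cartilage chain Col2a1 was tested and lay close to the filter. Values of different rows are not compared as levels, since each row has its own probes.

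No collagen chain passed an adjusted p of 0.05 in any of the 3 comparisons (limma, Benjamini-Hochberg over 16639 genes). Over all genes 0.379% passed for knockout against control, 1.56% for cold against control and 2.42% for knockout against cold. At an unadjusted p under 0.05, 9 chains were lower and 1 was higher in knockout than in control fat, where 7.31% of all genes were lower and 8.94% higher. In cold against control fat 8 chains were lower and 0 higher at that level, with 11.0% and 9.36% of all genes, and in knockout against cold fat 3 were lower and 0 higher, with 10.1% and 16.8%. Without the 3 arrays that lie between the others, 3 chains were lower at that level for knockout against control (326 of 16639 genes). In that fit the chains lower numbered 3 for cold against control (267 of all genes) and 0 for knockout against cold (454 of all genes).

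The arrays of knockout and control fat did not overlap for 10 of the 24 chains, 9 lower in knockout and 1 higher, with 7.99% and 9.4% of all genes. Cold and control fat did not overlap for 12, 9 lower and 3 higher in cold (18.2% and 14.7% of all genes). Knockout and cold fat did not overlap for 6, 5 lower and 1 higher in knockout (12.3% and 20.2%). An exact permutation test of 3 arrays against 3 cannot go below p = 0.1, which is the value of every chain whose groups do not overlap. The fitted difference was below 0 for 21 of 24 chains in knockout against control fat (42.6% of all genes), for 17 in cold against control fat (56.0%) and for 17 in knockout against cold fat (42.3%). The median difference of the chains was -0.29 for knockout minus control (all genes 0.02), -0.05 for cold minus control (all genes -0.02) and -0.03 for knockout minus cold (all genes 0.03). These medians depend on how many dim, flat chains are tested: with the stricter filter, over 11 chains, they were -0.77, -0.49 and -0.22, and without a filter, over 42, they were -0.031, 0.0 and -0.020.

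**Figure D1:**
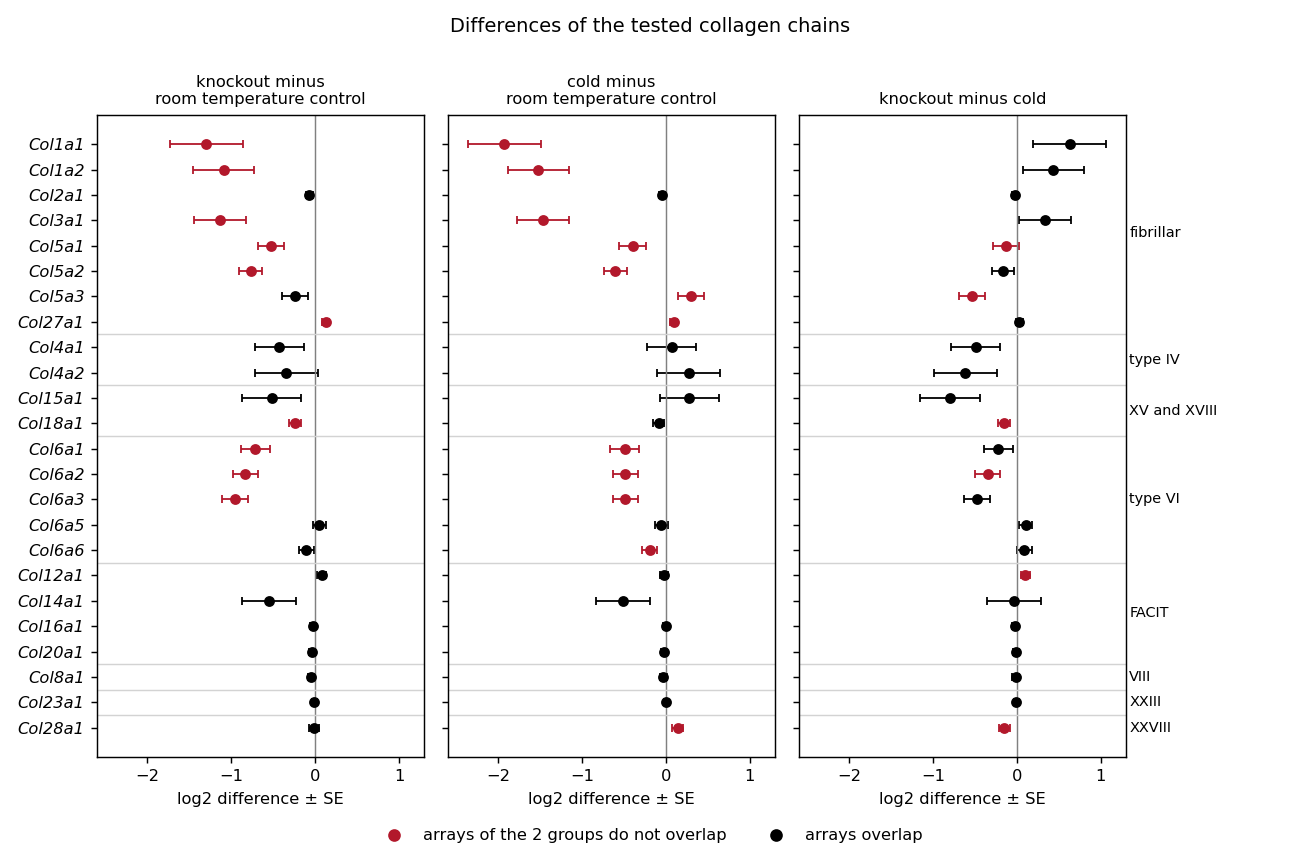
Log2 difference with its standard error for the 24 chains tested, in 1 panel for each comparison, with red marking chains whose 3 arrays a side do not overlap. Against control, 7 of 8 fibrillar and 4 of 5 type VI chains lie left of 0 in knockout fat, and 6 of 8 and 5 of 5 in cold fat, down to -1.93 for Col1a1, while the type IV chains are at 0.07 and 0.27 in cold fat.

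Type I collagen, the main fibre of connective tissue, is made of Col1a1 and Col1a2 chains. Col1a1 read 12.90, 11.17 and 12.25 in knockout fat, 11.59, 11.51 and 11.32 in cold fat, and 13.91, 12.92 and 13.38 in control fat. All knockout and all cold arrays lay below every control array, knockout replicate 1 by only a little. The knockout average was 12.1 ± 0.87, the cold average 11.5 ± 0.14 and the control average 13.4 ± 0.49 (SD, n = 3 each). Col1a1 was thus 2.46-fold lower in knockout fat (-1.30 ± 0.44 log2, SE; limma adjusted p = 0.209) and 3.80-fold lower in cold fat (-1.93 ± 0.44; adjusted p = 0.0836). Its partner Col1a2 read 12.78, 11.44 and 12.31 in knockout fat, 11.88, 11.76 and 11.59 in cold fat, and 13.77, 12.83 and 13.20 in control fat. It followed the same order of arrays, with differences of -1.09 ± 0.36 in knockout fat (limma adjusted p = 0.207) and -1.52 ± 0.36 in cold fat (adjusted p = 0.0961) against control.

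Type III collagen, a homotrimer of Col3a1 that mixes with type I in pliable tissue, had the brightest row of the family. Col3a1 read 14.24, 13.19 and 13.87 in knockout fat, 13.75, 13.43 and 13.12 in cold fat, and 15.28, 14.59 and 14.83 in control fat. Again no knockout or cold array reached the lowest control array, and the differences were -1.13 ± 0.31 in knockout fat (limma adjusted p = 0.142) and -1.47 ± 0.31 in cold fat (adjusted p = 0.0710). In knockout against cold fat the type I and III chains overlapped, with differences of 0.63 ± 0.44 for Col1a1, 0.43 ± 0.36 for Col1a2 and 0.33 ± 0.31 for Col3a1 (limma adjusted p = 0.384, 0.472 and 0.511). Without knockout replicate 1 these were 0.23, 0.13 and 0.096, and without knockout replicate 2 they were 1.10, 0.80 and 0.62, while Col3a1 was 0.18 without cold replicate 3. Against control, leaving out knockout replicate 2 gave -0.83 for Col1a1 and -0.72 for Col1a2. The spread in knockout fat came from replicate 2, the lowest of the knockout arrays for all of these chains, and replicate 1, the highest. The cold differences of Col1a1, Col1a2 and Col3a1 passed once the knockout arrays were left out of the fit (limma adjusted p = 0.0203, 0.0345 and 0.0329), and also without knockout replicate 1 alone or knockout replicate 2 alone, which changes only the estimate of spread.

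The promoters of Col1a2 and Col3a1 are shown because these chains lay lower together in both groups. The windows span 250 bases before to 50 after the gene start that RefSeq annotates on GRCm38.p6, Col1a2 at chr6:4505368-4505667 and Col3a1 at chr1:45311288-45311587, both on the plus strand, written 5′ to 3′. Capitals mark the TATA box letters TATAAA, the CCAAT box letters CCAAT and the GC box letters GGGCGG on either strand.
Col1a2: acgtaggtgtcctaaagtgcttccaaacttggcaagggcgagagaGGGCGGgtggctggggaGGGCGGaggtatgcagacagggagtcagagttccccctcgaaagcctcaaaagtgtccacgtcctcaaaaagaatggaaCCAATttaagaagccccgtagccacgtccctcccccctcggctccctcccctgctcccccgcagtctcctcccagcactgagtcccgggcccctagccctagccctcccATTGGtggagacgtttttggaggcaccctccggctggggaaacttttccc
Col3a1: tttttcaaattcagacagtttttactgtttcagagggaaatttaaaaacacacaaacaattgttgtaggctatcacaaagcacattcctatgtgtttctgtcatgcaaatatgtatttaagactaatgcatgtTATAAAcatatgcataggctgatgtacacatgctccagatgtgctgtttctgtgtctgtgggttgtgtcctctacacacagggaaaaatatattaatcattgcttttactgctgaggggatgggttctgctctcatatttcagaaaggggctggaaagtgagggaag
The Col1a2 window holds 2 CCAAT and 2 GGGCGG matches and no TATAAA, whereas the Col3a1 window holds 1 TATAAA and neither of the others. Among the 33 chains with such a window, TATAAA was found in 5, CCAAT in 10 and GGGCGG in 20, and among all 32851 windows of that length in 13.6%, 37.4% and 35.7%. The motifs do not overlap one another in these windows, and a match describes letters and no binding.

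Type V collagen nucleates type I fibres and sets their width. Its Col5a2 chain read 7.69, 7.61 and 7.55 in knockout fat, 7.89, 7.80 and 7.65 in cold fat, and 8.67, 8.13 and 8.35 in control fat. These 3 knockout arrays were close to each other and all lay below the controls, with a difference of -0.77 ± 0.14 (limma adjusted p = 0.0662), and the cold difference was -0.60 ± 0.14 (adjusted p = 0.0832). Col5a1 read 6.82, 6.86 and 6.78 in knockout fat, 6.98, 6.98 and 6.89 in cold fat, and 7.71, 7.0 and 7.34 in control fat. Its control replicate 2 lay only just above the cold arrays, and the differences were -0.53 ± 0.16 in knockout (limma adjusted p = 0.177) and -0.40 ± 0.16 in cold fat (adjusted p = 0.222). Without control replicate 2 the knockout differences of Col5a1 (-0.70) and Col5a2 (-0.90) passed, and without knockout replicate 1 that of Col5a2 passed (-0.80). Without control replicate 1 the Col5a1 differences were -0.35 in knockout and -0.22 in cold fat.

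The remaining type V chain, Col5a3, had another pattern. Col5a3 read 6.71, 7.38 and 7.05 in knockout fat, 7.72, 7.55 and 7.46 in cold fat, and 7.30, 7.28 and 7.28 in control fat. All cold arrays lay above the knockout and the control arrays, while the knockout arrays lay on both sides of the controls. The cold difference from control was 0.30 ± 0.16 (limma adjusted p = 0.324), and knockout minus cold was -0.53 ± 0.16 (adjusted p = 0.0957), the smallest adjusted p of any chain in that comparison. Without knockout replicate 2, whose value was the highest of the knockout arrays, knockout minus cold was -0.70 and passed (limma adjusted p = 0.0192).

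Among the remaining fibrillar chains, Col27a1, also a fibrillar chain described in cartilage, was the single chain higher in every knockout array. Col27a1 read 6.09, 6.17 and 6.15 in knockout fat, 6.13, 6.09 and 6.09 in cold fat, and 5.95, 6.06 and 6.02 in control fat, a knockout difference of 0.13 ± 0.04 (limma adjusted p = 0.205). The gap was small, 1.09-fold. Col2a1, the chain of cartilage fibrils, stayed between 5.29 and 5.46 on all 9 arrays. Col11a1, Col11a2 and Col24a1 lay below the filter.

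**Figure D2:**
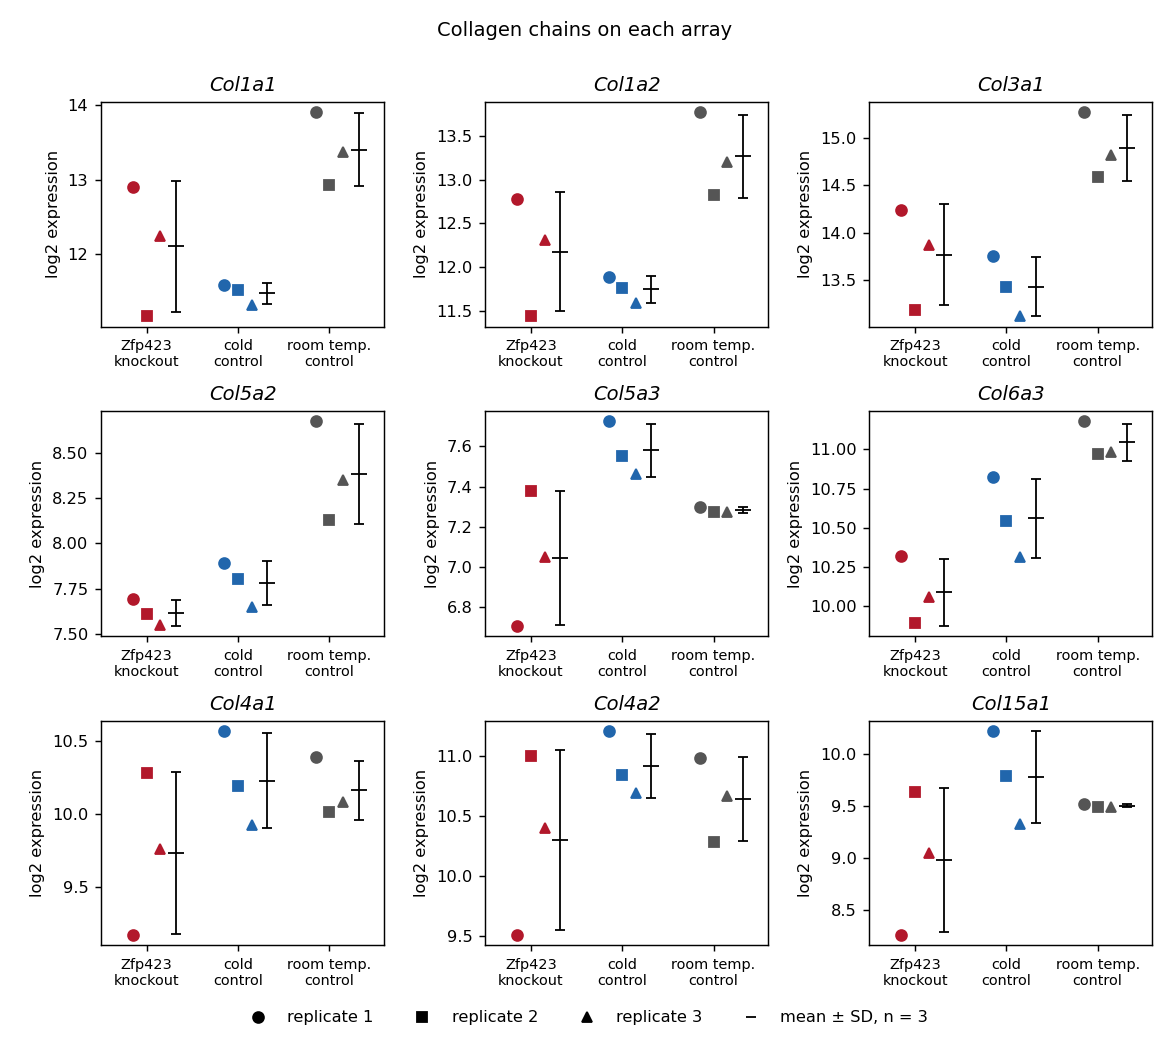
Deposited log2 values of 9 chains on each array, with knockout at the left, cold in the middle and room temperature control at the right, replicates as circle (1), square (2) and triangle (3), and the mean with its SD as a bar. Col1a1, Col1a2, Col3a1, Col5a2 and Col6a3 lie below every control array in knockout and in cold fat, whereas the Col4a1, Col4a2 and Col15a1 arrays overlap with controls.

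Type VI collagen is built from Col6a1, Col6a2 and a longer partner chain, usually Col6a3, whose cleaved end is the adipokine endotrophin. Col6a3 read 10.32, 9.89 and 10.06 in knockout fat, 10.82, 10.54 and 10.32 in cold fat, and 11.18, 10.97 and 10.98 in control fat. The knockout arrays were lowest, the cold arrays lay between with replicate 3 level with the highest knockout array, and the controls were highest. Its knockout difference, -0.96 ± 0.15 or 1.94-fold lower, had the smallest adjusted p of any chain against control (limma, 0.0575), and in cold fat it was -0.48 ± 0.15 (adjusted p = 0.159). Knockout minus cold was -0.47 ± 0.15 for Col6a3 (limma adjusted p = 0.117), 1 of the 3 chains with an unadjusted p under 0.05 there, beside Col5a3 and Col28a1.

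Col6a2 read 8.46, 8.29 and 8.33 in knockout fat, 8.87, 8.68 and 8.58 in cold fat, and 9.53, 8.94 and 9.11 in control fat. The 3 groups did not overlap, in the order knockout, cold, control, with differences against control of -0.83 ± 0.15 in knockout (limma adjusted p = 0.0701) and -0.48 ± 0.15 in cold fat (adjusted p = 0.155). Col6a1 read 10.28, 10.02 and 10.17 in knockout fat, 10.51, 10.43 and 10.20 in cold fat, and 11.23, 10.56 and 10.82 in control fat. Both groups lay below all controls, by -0.71 ± 0.17 in knockout (limma adjusted p = 0.115) and -0.49 ± 0.17 in cold fat (adjusted p = 0.190). Without knockout replicate 1 the knockout differences of Col6a2 (-0.88) and Col6a3 (-1.07) passed, and without control replicate 2 that of Col6a2 (-0.96). Without control replicate 1 the cold differences were -0.31 for Col6a1 and -0.32 for Col6a2. The alternative long chains behaved less uniformly: Col6a5 differed by 0.05 in knockout and -0.05 in cold fat, and Col6a6 by -0.11 and -0.20, with adjusted p between 0.277 and 0.780 (limma).

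Type IV collagen of most basement membranes is a trimer of Col4a1 and Col4a2 chains. Col4a1 read 9.17, 10.28 and 9.76 in knockout fat, 10.57, 10.19 and 9.93 in cold fat, and 10.39, 10.01 and 10.08 in control fat. The groups overlapped in every comparison: knockout replicate 1 was the lowest of the 9 arrays, while knockout replicate 2 lay above 2 of the controls. The differences were -0.43 ± 0.29 in knockout (limma adjusted p = 0.511; -0.14 without knockout replicate 1) and 0.07 ± 0.29 in cold fat (adjusted p = 0.923), and the cold value turned to -0.01 without control replicate 2 and to -0.10 without cold replicate 1. Col4a2 read 9.50, 11.00 and 10.40 in knockout fat, 11.21, 10.84 and 10.69 in cold fat, and 10.98, 10.28 and 10.67 in control fat. It overlapped in the same way, with -0.34 ± 0.38 in knockout (limma adjusted p = 0.690), which became 0.05 without knockout replicate 1, and 0.27 ± 0.38 in cold fat (adjusted p = 0.715). In knockout against cold fat Col4a1 was -0.49 ± 0.29 and Col4a2 -0.61 ± 0.38 (limma adjusted p = 0.311 and 0.329). Without knockout replicate 1 these were -0.21 and -0.22, and without knockout replicate 2 they were -0.76 and -0.96.

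Col4a1 and Col4a2 are the textbook case of a collagen gene pair that lies head to head and is read in opposite directions from a shared stretch, and their windows are shown for that reason. On GRCm38.p6 the Col4a1 window is chr8:11312777-11313076 on the minus strand and the Col4a2 window chr8:11312555-11312854 on the plus strand, each 5′ to 3′ along its own strand with the same letters in capitals.
Col4a1: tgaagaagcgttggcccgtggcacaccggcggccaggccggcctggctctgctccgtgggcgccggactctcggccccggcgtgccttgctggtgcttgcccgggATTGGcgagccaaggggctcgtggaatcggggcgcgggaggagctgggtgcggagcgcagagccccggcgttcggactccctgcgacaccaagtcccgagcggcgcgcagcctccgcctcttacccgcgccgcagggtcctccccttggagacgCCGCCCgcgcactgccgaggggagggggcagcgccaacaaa
Col4a2: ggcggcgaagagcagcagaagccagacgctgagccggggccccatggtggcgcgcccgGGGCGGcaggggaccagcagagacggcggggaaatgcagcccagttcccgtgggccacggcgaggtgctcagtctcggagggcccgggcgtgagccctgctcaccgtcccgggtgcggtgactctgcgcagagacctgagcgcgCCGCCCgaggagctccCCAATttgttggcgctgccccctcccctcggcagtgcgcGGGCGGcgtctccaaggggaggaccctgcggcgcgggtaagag
The annotated starts are 21 bases apart, Col4a1 at 11312826 and Col4a2 at 11312805. The 5′ ends of the annotated transcripts therefore overlap, with no gap between them. The windows share 78 bases with identical letters. Neither window holds TATAAA, each holds 1 CCAAT match, and GGGCGG occurs once in the Col4a1 window and at 3 places in the Col4a2 window. The Col4a1 match and the last Col4a2 match are the same bases of the shared stretch, read on opposite strands.

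The tissue-restricted type IV chains were dim. Col4a3, a chain of kidney and lung basement membranes, had group means of 4.99 in knockout, 5.02 in cold and 5.03 in control fat. Col4a4 read 5.3048 on all 9 arrays. Col4a5 averaged 5.04 in knockout, 5.08 in cold and 5.13 in control fat, and Col4a6 3.98, 3.99 and 3.99. These 4 chains had no test because their means lay below the filter.

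Col15a1, a chain at the interface of the basement membrane and the fibres, read 8.26, 9.63 and 9.05 in knockout fat, 10.22, 9.78 and 9.33 in cold fat, and 9.52, 9.49 and 9.49 in control fat. The controls were nearly level, while the knockout and cold arrays each spread widely around them. Its differences were -0.52 ± 0.35 in knockout against control, 0.28 ± 0.35 in cold against control and -0.80 ± 0.35 in knockout against cold (limma adjusted p = 0.511, 0.685 and 0.198). These rest on single arrays: knockout minus control was -0.16 without knockout replicate 1 and -0.85 without knockout replicate 2, cold minus control 0.058 without cold replicate 1 and 0.50 without cold replicate 3, and knockout minus cold -0.44 without knockout replicate 1. Col18a1, the precursor of endostatin, read 6.83, 6.70 and 6.64 in knockout fat, 6.88 on each cold array, and 7.08, 6.88 and 6.94 in control fat. All knockout arrays lay below both other groups, by -0.24 ± 0.07 against control (limma adjusted p = 0.151) and -0.15 ± 0.07 against cold fat (adjusted p = 0.195), although the cold arrays sat at 1 value.

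FACITs sit on the surface of fibrils. Col14a1, which coats type I fibrils, read 8.13, 7.13 and 7.83 in knockout fat, 7.66, 7.70 and 7.83 in cold fat, and 8.80, 7.74 and 8.19 in control fat. The groups overlapped through control replicate 2, with -0.55 ± 0.32 in knockout and -0.52 ± 0.32 in cold fat (limma adjusted p = 0.448 and 0.389). Without control replicate 1 these were -0.27 and -0.24, and without knockout replicate 2 the knockout value was -0.26. Col12a1, its close relative, read 6.86, 6.98 and 6.82 in knockout fat, 6.82, 6.74 and 6.79 in cold fat, and 6.84, 6.78 and 6.80 in control fat. It was the single chain above every cold array in knockout fat, by 0.10 ± 0.05 (limma adjusted p = 0.229), without lying apart from the controls. Col16a1 (5.54 to 5.62) and Col20a1 (5.33 to 5.43) hardly varied over the 9 arrays, and Col9a1, Col9a2, Col9a3, Col19a1 and Col22a1 lay below the filter.

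Among the last classes, 3 chains were tested. Col8a1, a short-chain collagen of vessel walls, lay between 5.57 and 5.69 on all arrays. Col23a1, a transmembrane collagen, read 5.88 on 8 arrays and 5.86 on knockout replicate 2. Col28a1, a collagen described around Schwann cells of peripheral nerve, read 5.53, 5.49 and 5.48 in knockout fat, 5.60, 5.56 and 5.78 in cold fat, and 5.53, 5.47 and 5.53 in control fat. Every cold array was above the others, by 0.14 ± 0.06 over control (limma adjusted p = 0.259), and knockout minus cold was -0.15 ± 0.06 (adjusted p = 0.179). In the same cold arrays the Schwann cell gene S100b was 2.65 higher than in control fat (limma adjusted p = 0.0149). Mbp was 0.41 lower there (-0.41, limma adjusted p = 0.0391). These are 2 of the 4 tested Schwann markers, whose median difference in cold fat was 0.016. S100b was also 1.37 higher in knockout than in control fat (limma adjusted p = 0.106), where Col28a1 differed by -0.01. The part of the Schwann markers in the Col28a1 values was not tested.

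The fibrillar and type IV classes were set against each other within each array, as the mean shift of the 8 fibrillar chains from the control average minus that of the 2 type IV chains. The fibrillar shift was -0.43, -0.86 and -0.59 on the knockout arrays and -0.59, -0.69 and -0.82 on the cold arrays, against 0.25, -0.23 and -0.02 on the controls. The type IV shift was -1.06, 0.24 and -0.33 on the knockout arrays and 0.49, 0.11 and -0.09 on the cold arrays, against 0.28, -0.25 and -0.03 on the controls. The fibrillar class mean was below all controls in both groups, whereas the type IV mean straddled them. Not every fibrillar chain followed its class, since Col27a1 lay above all controls in both groups, Col5a3 lay above them in cold fat and Col2a1 overlapped with them.

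Fibrillar minus type IV was 0.64, -1.10 and -0.26 on the knockout arrays (-0.24 ± 0.87, SD, n = 3), -1.07, -0.80 and -0.72 on the cold arrays (-0.87 ± 0.19), and -0.03, 0.03 and 0.01 on the controls (SD 0.03). On all cold arrays the fibrillar chains were displaced below the type IV chains, and on the knockout arrays the sign differed between replicates. Without knockout replicate 2 the knockout value was 0.19, and without knockout replicate 1 it was -0.68. Knockout minus cold was 0.63, between 0.19 and 1.05 with 1 array left out. These class values rest on chains chosen together and have no test. The type VI mean was, like the fibrillar mean, below all controls, with shifts of -0.35, -0.65 and -0.53 in knockout and -0.25, -0.34 and -0.44 in cold fat. The order of the groups differed. Type VI averaged -0.51 in knockout and -0.34 in cold fat, and the fibrillar class -0.62 and -0.70. The types XV and XVIII averaged -0.69, -0.07 and -0.39 in knockout and 0.32, 0.10 and -0.13 in cold fat.

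**Figure D3:**
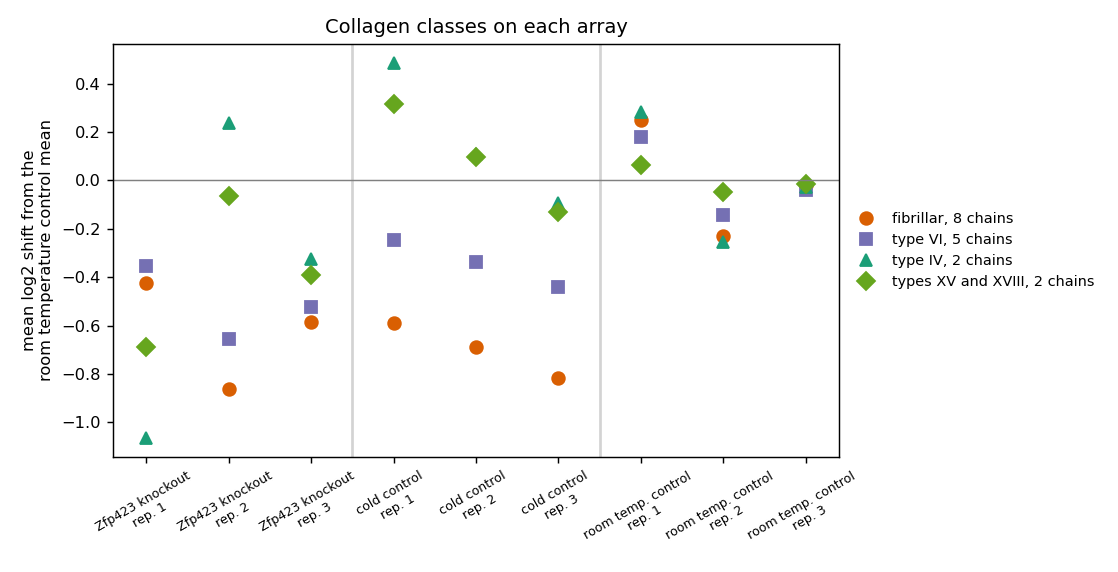
Mean log2 shift of 4 collagen classes from the room temperature control average, 1 point per array, with knockout, cold and control from left to right. The fibrillar and type VI class means lie below all control arrays in knockout and cold fat, while the type IV mean runs from -1.06 on knockout replicate 1 to 0.49 on cold replicate 1.

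For the trimer partners below, the difference of shifts spread less over the 9 arrays than either chain ranged, except for Col5a1 and Col5a3. Col1a1 ranged over 2.74 log2 units and Col1a2 over 2.34, and the difference of their shifts spread over 0.47. Col6a1 and Col6a2 ranged over 1.22 and 1.24, with a spread of 0.23 between them. Their partner Col6a3 ranged over 1.29, with spreads of 0.54 against Col6a1 and 0.43 against Col6a2. Col4a1 and Col4a2 ranged over 1.40 and 1.71, with a spread of 0.50. Col5a1 and Col5a2 spread over 0.38 but Col5a1 and Col5a3 over 1.15, more than the 0.93 that Col5a1 itself ranged over. Across classes, Col1a1 and Col4a1 spread over 2.83. Col4a1 and Col15a1, of different trimers, spread over 0.56. All of these chains share the same 9 arrays, so that the spreads are a description of these arrays.

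Genes that act on collagen were read from 7 lists, and 0 of them passed in any comparison (limma, adjusted p of 0.05). For chain synthesis and folding 19 of 22 listed genes were tested, and at an unadjusted p under 0.05 there were 4 lower and 0 higher in knockout, and 3 lower and 1 higher in cold against control fat. Over all genes 7.31% were lower and 8.94% higher in knockout and 11.0% lower and 9.36% higher in cold fat at that level, which are the shares to read all list counts against. In knockout against cold fat, where 10.1% of all genes were lower and 16.8% higher, this list had 5 lower and 2 higher, basement membrane partners 3 lower, collagen receptors 3 lower and 1 higher, fibril-binding proteoglycans and breakdown genes 1 lower and 1 higher each, TGF-beta genes 1 higher, and propeptide removal and crosslinking 0. P4hb, the beta subunit of prolyl 4-hydroxylase, read 12.56, 12.57 and 12.54 in knockout fat, 12.73, 12.72 and 12.52 in cold fat, and 13.40, 13.03 and 13.12 in control fat. It lay below all controls in both groups, by -0.63 ± 0.10 in knockout (limma adjusted p = 0.0575) and -0.53 ± 0.10 in cold fat (adjusted p = 0.0599). Plod2, a lysyl hydroxylase for crosslink sites, was -0.37 ± 0.11 in knockout against control (limma adjusted p = 0.164).

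Outside the cell, 11 of 16 genes of propeptide removal and crosslinking were tested, with 3 lower in knockout and 1 lower in cold fat at an unadjusted p under 0.05. Pcolce, the enhancer of procollagen C-proteinase, was -0.59 ± 0.15 and the proteinase Bmp1 -0.42 ± 0.14 in knockout against control (limma adjusted p = 0.129 and 0.196). Both rows held repeated values, 7.7722 for Pcolce and 8.1273 for Bmp1, on every cold array and on control replicate 2. Fn1, the fibronectin on which fibrils assemble, was -1.20 ± 0.49 in cold fat (limma adjusted p = 0.233). All 9 fibril-binding proteoglycans were tested, 2 lower in knockout and 2 lower in cold fat. Podn was -1.36 ± 0.31 and Prelp -1.68 ± 0.52 in knockout fat (limma adjusted p = 0.102 and 0.186), while biglycan, Bgn, was -0.90 ± 0.26 in cold fat (adjusted p = 0.130).

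On the side of breakdown, 11 of 15 genes were tested, with 0 in either direction in knockout and 2 lower and 1 higher in cold fat at an unadjusted p under 0.05. The gelatinase Mmp2 was -0.63 ± 0.21 in cold against control fat (limma adjusted p = 0.166), and Mmp14, the membrane collagenase that activates it, was 0.64 ± 0.20 in knockout against cold fat (adjusted p = 0.108). Of 12 collagen receptors 9 were tested, with 2 lower in knockout and 1 lower and 2 higher in cold fat. The fibrillar collagen receptor Ddr2 was -0.51 ± 0.20 in knockout fat (limma adjusted p = 0.263), and Ddr1 0.42 ± 0.12 in cold fat (adjusted p = 0.137). Of 12 genes of TGF-beta signalling, a main inducer of fibrillar collagen genes, 11 were tested, with 1 lower in knockout and 0 in cold fat, Tgfb3 at -0.34 ± 0.12 in knockout against control (limma adjusted p = 0.222).

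Basement membrane partners, laminins, nidogens and heparan sulphate proteoglycans among them, had 14 of 16 tested, with 4 lower in knockout and 0 in cold fat at an unadjusted p under 0.05. Their median difference was -0.52 in knockout and 0.00 in cold fat against control. The list mean shifted by -0.73, -0.19 and -0.45 on the knockout arrays and 0.34, -0.31 and -0.03 on the controls, so that knockout replicate 2 lay among the controls. Knockout and control arrays were apart for 0 of the 14 genes (7.99% of all genes lower and 9.4% higher). Nid1, which ties laminin to type IV collagen, read 12.44, 13.53 and 12.96 in knockout fat, 14.45, 14.28 and 14.06 in cold fat, and 14.96, 13.45 and 14.23 in control fat. Knockout replicate 1 was the lowest array, as for Col4a1 and Col4a2, and the difference of Nid1 was -1.24 ± 0.41 in knockout against control (limma adjusted p = 0.205). Pxdn, the peroxidasin that forms sulfilimine crosslinks in type IV collagen, was -0.81 ± 0.27 in knockout fat (limma adjusted p = 0.208).

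Cell type markers varied between arrays beside the chains, and in bulk tissue fewer cells of a type and less RNA per cell cannot be told apart. The 9 tested fibroblast and progenitor markers (of 12 listed) shifted by -0.23, -0.51 and -0.29 on the knockout arrays and -0.38, -0.38 and -0.55 on the cold arrays from the control average, with mean levels of 10.8 to 11.1 in knockout, 10.8 to 10.9 in cold and 11.2 to 11.5 in control fat. Knockout replicate 2 was the lowest knockout array in these markers as in Col1a1, Col1a2 and Col3a1, and replicate 1 the highest. This order was not particular to them, since macrophage, T cell, B cell and activated fibroblast markers, given below, had it too. Those lists were also below the control average on all cold arrays. At an unadjusted p under 0.05, 4 of the 9 were lower in knockout and 3 in cold fat, and 0 passed after adjustment (limma). Not every marker followed the list mean: Thy1 read 9.81, 8.53 and 9.20 in knockout fat, 8.48, 8.30 and 7.99 in cold fat, and 8.52, 8.88 and 8.63 in control fat. Dpp4 read 10.15, 8.61 and 9.57 in knockout fat, 8.09, 8.23 and 8.45 in cold fat, and 9.11, 9.51 and 9.06 in control fat. Both were above all controls on knockout replicates 1 and 3 and below all controls on the cold arrays. Their part in the fibrillar values was not tested.

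Endothelial markers, 11 tested of 12, shifted by -0.66, 0.28 and -0.15 on the knockout arrays and 0.43, 0.33 and 0.16 on the cold arrays, and mural markers, 9 of 9, by -0.38, 0.12 and -0.14 and by 0.44, 0.23 and -0.11. The mean endothelial level was 10.5 to 11.5 in knockout, 11.4 to 11.6 in cold and 10.9 to 11.4 in control fat. On the knockout arrays these shifts have the order of the type IV chains, lowest on replicate 1 and highest on replicate 2, and so do the 10 adipocyte markers (-0.62, 0.13 and -0.15). Their part in the type IV and Col15a1 values was not tested. Macrophage markers ran the other way, with shifts of 0.43, -1.0 and -0.14 on the knockout and -1.07, -0.95 and -0.88 on the cold arrays, and T cell markers with 1.49, -0.23 and 0.83 on the knockout and -0.88, -0.94 and -1.01 on the cold arrays. B cell markers shifted by 0.58, -1.0 and -0.07 on the knockout and -1.87, -1.25 and -0.75 on the cold arrays, and activated fibroblast markers, 5 tested of 7, by -0.14, -0.28 and -0.17 and by -0.22, -0.31 and -0.39.

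Skeletal muscle markers shifted by -1.45, 0.21 and -0.38 on the knockout arrays and by 0.33, -0.69 and -3.95 on the cold arrays, so that muscle differed most on cold replicate 3. Without cold replicate 3 the cold differences from control were -1.85 for Col1a1, -1.44 for Col1a2 and -1.31 for Col3a1. None of 7 epithelial and none of 6 cartilage and bone markers passed the filter on dim rows. Apart from the listed Schwann markers S100b and Mbp in cold fat, 0 markers of these lists passed in any comparison (limma, adjusted p of 0.05). In knockout against cold fat, at an unadjusted p under 0.05, 7 of 7 T cell markers were higher, 2 of 11 macrophage markers were higher, 5 of 11 endothelial, 2 of 9 mural and 2 of 10 adipocyte markers were lower, and fibroblast markers had 2 higher and 2 lower of 9.

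**Figure D4:**
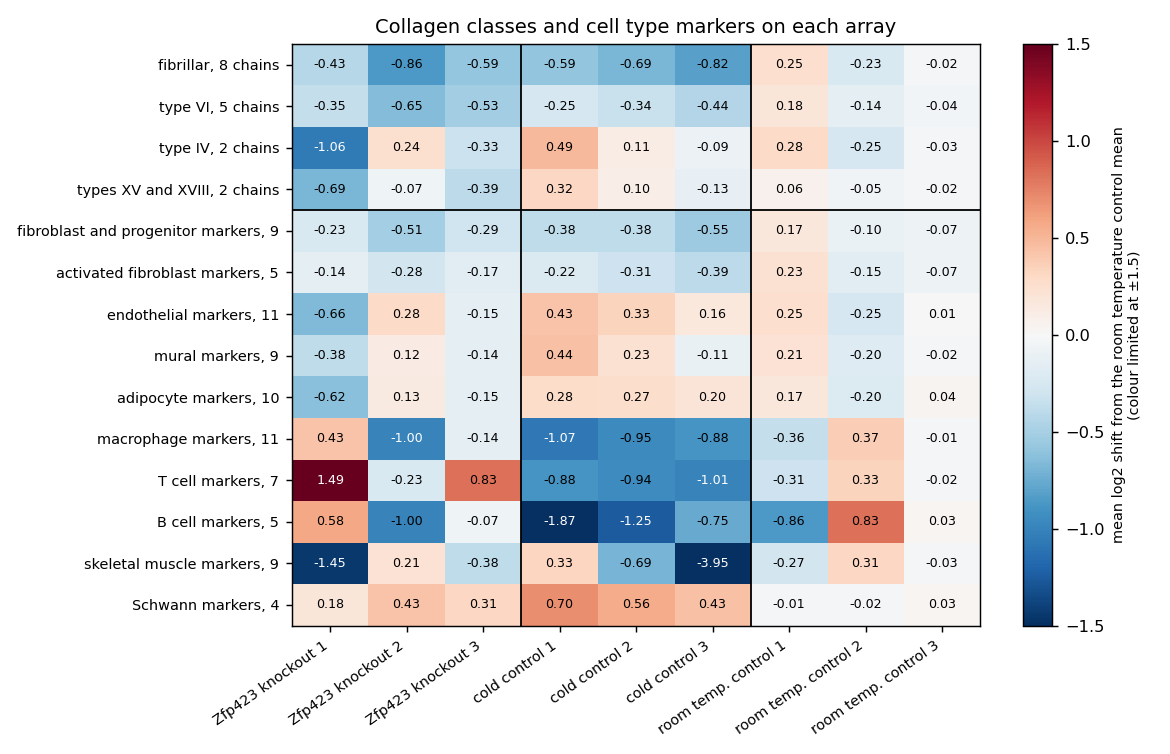
Mean log2 shift from the room temperature control average of the collagen classes (upper rows) and the cell type marker lists (lower rows) on each of the 9 arrays, knockout, cold and control from left to right, with colour limited to 1.5 log2 units either way. The list means of fibroblast markers and of fibrillar chains are below the control average on all knockout and cold arrays, whereas those of endothelial markers and type IV chains are lowest on knockout replicate 1. Macrophage, T cell and B cell markers are below the control average on all cold arrays and, among knockout arrays, lowest on replicate 2.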

How the data were processed

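Total RNA of inguinal fat was hybridised to 9 Affymetrix mouse transcriptome arrays, 3 per group. The log2 values were deposited by the authors and made with Affymetrix Expression Console, per the submitters' processing notes. Neither its version nor the normalization or build used is given in those notes. The log2 scale was taken from the values, 1.84 to 19.93 over 72688 rows, which limits precision at both ends. Rows were named by the platform annotation, with 827 symbols updated through RefSeq (GRCm38.p6, for names), and 2146 rows naming several genes were left out. Each gene was represented by its brightest row on average, and genes below the median row mean (5.3146) were not tested. limma 3.58.1 in R 4.3.3 fitted 3 group means over all 9 arrays (6 residual degrees of freedom) with Benjamini-Hochberg adjustment over 16639 genes at 0.05. The script was tested on simulated data. Values on every array were given for the main chains of each class, and other chains by range, group mean, difference or count. Of the partner and marker lists, counts, shifts and differences of selected genes were given, with array values for only a few of them. Members, lists and tests were chosen with earlier results of these data known. Alternatives varied the normalization, centring, filter, rows per gene, arrays in the fit, variance model, replicate block and threshold. Promoter windows are RefSeq's, with the first listed used for genes with several.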

Additional observations from a re-analysis of the deposited data

How the results depend on the processing

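The count of collagen chains that pass, 0 in each comparison, stayed at 0 with median centring, without the filter on dim rows, with the mean of the rows of a gene, with limma-trend and without the 3 arrays that lie between the others. At an adjusted p under 0.1 it was 3 for knockout against control, 4 for cold against control and 1 for knockout against cold. At an unadjusted p under 0.05 it was 10, 8 and 3. Over all 16639 genes the counts were 508, 718 and 2031 at the former threshold and 2705, 3396 and 4481 at the latter. For the chains, other settings gave other counts. Array weights gave 20, 14 and 18, but their estimation did not converge and they called 11755, 8946 and 9904 of all genes. Quantile normalization gave 1 (Col6a3) and the stricter filter 2 of 11 (Col5a2 and Col6a3) for knockout against control, and the fit of the 2 groups alone gave 3 for cold against control. With 1 array left out the counts ran from 0 to 3 for knockout against control, 0 to 3 for cold against control and 0 to 1 for knockout against cold. With 1 array left out, fibrillar minus type IV ran from -0.68 to 0.19 for knockout against control (0.19 without knockout replicate 2), from -0.94 to -0.76 for cold against control and from 0.19 to 1.05 for knockout against cold. The choice of chains moved it too: the stricter filter, which keeps fewer chains, gave -0.69, -1.55 and 0.86, and no filter -0.31, -0.55 and 0.25. The median over chains gave -0.24, -0.68 and 0.44, and types I, III and V alone -0.46, -1.11 and 0.65. These values lay outside the range with 1 array left out for cold against control, and inside it for knockout against cold. For knockout against control none of them turned the sign, which leaving out knockout replicate 2 did. The cause of the other moves was not tested.

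The fit with replicate number as a block called 0 chains in all 3 comparisons. The labels do not say whether the numbers pair samples. Same-numbered arrays had correlations of deviations between -0.46 and 0.09 over 9 pairs. These cannot show whether samples were paired, since most genes had their middle value of a group on the same array. Of 843 values of 15 chains in 3 comparisons under the alternatives, 777 kept direction and side of the threshold, 59 newly passed (40 with array weights) and 7 turned sign. These were Col27a1 in knockout against cold with median centring (-0.046), Col4a1 in cold against control without control replicate 2 (-0.0065) or cold replicate 1 (-0.10; highest 0.22, without cold replicate 3), Col4a2 in knockout against control without knockout replicate 1 (0.054; lowest -0.69, without knockout replicate 2), and Col14a1 in knockout against cold with array weights (0.11), without cold replicate 3 (0.02) or without knockout replicate 2 (0.25; lowest -0.25, without knockout replicate 1). Over all genes the calls without array weights ran from 0 to 834 for knockout against control (main 63), 0 to 1347 for cold against control (main 260) and 0 to 2703 for knockout against cold (main 402). The last split 207 lower and 195 higher, which became 333 lower and 207 higher with median centring and 327 lower and 148 higher with quantile normalization. The 3 arrays a group limit the precision. Rows near the dim end sit at repeated values, and so do some brighter rows, such as Pcolce and Bmp1.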
